A study of Mus musculus with 6 samples.

Results

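The clustered Hox genes were read in RNA of the mouse otic vesicle, from which the inner ear develops. Members were all probe sets that the platform annotation assigns to a single gene symbol made of Hox, a cluster letter from a to d and a number. The rule took 48 probe sets of 33 genes, out of 45037 probe sets and 18193 named genes on the array. All embryos carried T-Cre, a recombinase transgene active in early mesoderm, and all were taken at embryonic day 11.5. In Mest-KO embryos, T-Cre had removed the transcription factor gene Tbx1 conditionally, and the Control group held conditional heterozygotes, so both groups carried a Cre-dependent Tbx1 deletion. There were 3 arrays per group, which the labels call biological replicates, and each array held both ears of 3 embryos of 1 genotype. The vesicle was freed from the tissue around it by dispase for 30 min at 37 °C.

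Hox genes encode homeodomain transcription factors that sit in 4 clusters, A to D, and are numbered by paralogue group from the 3′ end of each cluster. Genes at the 3′ end are switched on early and reach far anterior levels such as the hindbrain, while genes at the 5′ end are used in the trunk, limbs and tail, so the set of Hox genes that a tissue uses records its level along the body axis. The otic vesicle forms beside the hindbrain, next to rhombomeres, neural crest and mesoderm that each use their own anterior Hox genes.

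The arrays were scaled to the same trimmed mean of 500 and had median intensities between 62.1 and 91.0. The 27 probe sets for Bacillus transcripts, which match no mouse gene, served as background, and "above background" means above the highest of them on the same array. That highest value was 56.6 on Mest-KO 3 and between 14.2 and 24.3 on the other 5 arrays, so Mest-KO 3 stood apart by a raised low end. A reading on Mest-KO 3 therefore had to be higher than elsewhere to count as above background. The pools also differed in the sex of their embryos, since Xist stood at 16.1 on Mest-KO 1 against at least 2331 elsewhere and Eif2s3y at 12.1 on Control 2 against at least 1373 elsewhere. Tbx1 intensity was 910, 704 and 713 on the Mest-KO arrays, against 898, 690 and 766 on the Control arrays (log2 difference -0.027, SE 0.165). An exact permutation test (two-sided) gave p = 1 for Tbx1, and 3 against 3 arrays can reach 0.1 at the lowest. The place of that probe set in the gene was not known. T-Cre is also active in mesoderm, while the vesicle was freed from the tissue around it. For both reasons the Tbx1 level does not check the labels. Defining markers of the otic epithelium were bright, 12 of 12 above background on all 6 arrays, among them Oc90, Epcam and Sox10. Intensities are deposited values, and differences are Mest-KO minus Control in log2 units after quantile normalization. Probes differ in affinity, so intensities of different probe sets are not read as relative amounts of RNA. Shares above background, ranks of brightness and summed intensities depend on that affinity too.

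Of the 5 Hox genes whose signal was bright enough to be tested, 3 had a promoter in the RefSeq table (build GRCm38.p6), and they are shown because these genes carry the comparison between groups. Each line gives the 250 bases before the annotated start, 5′ to 3′ on the gene's strand. Hoxa2 lies at chr6:52164832-52165081 and Hoxa3 at chr6:52213068-52213317, both on the minus strand, and Hoxc4 at chr15:103034145-103034394 on the plus strand. Capitals mark a match to a Pbx-Hox site, TGATNNAT, in Hoxa2 and to a retinoid receptor core, AGGTCA, in Hoxc4, both searched on both strands.
Hoxa2: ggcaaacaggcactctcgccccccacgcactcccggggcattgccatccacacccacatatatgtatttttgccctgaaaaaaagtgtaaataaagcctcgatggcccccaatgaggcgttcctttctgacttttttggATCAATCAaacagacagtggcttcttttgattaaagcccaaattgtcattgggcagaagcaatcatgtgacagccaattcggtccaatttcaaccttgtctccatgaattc
Hoxa3: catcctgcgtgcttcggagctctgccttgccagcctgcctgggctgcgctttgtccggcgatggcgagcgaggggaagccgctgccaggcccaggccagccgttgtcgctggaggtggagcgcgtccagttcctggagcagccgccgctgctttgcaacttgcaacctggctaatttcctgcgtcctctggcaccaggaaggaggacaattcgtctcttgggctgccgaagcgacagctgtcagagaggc
Hoxc4: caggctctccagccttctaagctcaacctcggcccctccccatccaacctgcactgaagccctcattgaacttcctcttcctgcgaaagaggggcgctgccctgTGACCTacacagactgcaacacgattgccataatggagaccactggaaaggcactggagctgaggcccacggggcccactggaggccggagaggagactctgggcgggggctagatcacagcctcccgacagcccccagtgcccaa
The 3 windows differed in composition, with a G+C content of 46.4% in Hoxa2, 64.8% in Hoxa3 and 62.0% in Hoxc4, and 6, 18 and 8 CpG dinucleotides in that order. Over the 21 Hox windows in the table, from 19 genes, the median G+C content was 59.2% against 52.4% over all 32851 windows, and the median number of CpG was 13 against 6. TGATNNAT was present in 3 Hox windows (Hoxa2, Hoxb1 and Hoxd11), 14.3% of them, against 7.68% of all windows. AGGTCA was present in 5 (Hoxb4, Hoxc4, Hoxd3, Hoxd8 and Hoxd10), 23.8%, against 14% of all windows, and TATAAA in 2 (Hoxa10 and Hoxd13), 9.52% against 12.4%. These are matches of letters within the window and not measured sites.

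Hox signal in the vesicle was low in all 4 clusters, and groups 2, 3 and 8 exceeded background most often. Of the 48 probe sets, 2 lay above background on all 6 arrays (4.17%, against 55.5% of all probe sets), 24 on some arrays, and 22 on no array (45.8%, against 16% of all). The 2 were 1456229_at for Hoxb3 and 1452412_at for Hoxc8. The count of 2 became 4 without Mest-KO 1, Mest-KO 3 or Control 2, 3 without Control 3, and 7 when background was taken as the 90th percentile of the Bacillus probe sets, a setting chosen after seeing the data. Each cluster had probe sets that exceeded background on at least 1 array: 9 of 16 probe sets of cluster A, 7 of 11 of cluster B, 6 of 11 of cluster C and 4 of 10 of cluster D.

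Detection was uneven among the paralogue groups and did not follow their number step by step. Groups 2, 3 and 8 exceeded background in 58.3%, 64.3% and 50% of readings, where a reading is 1 probe set on 1 array. Group 1, at the 3′ end of the clusters, did so in 16.7%, groups 4 to 7 in 16.7% to 29.2%, and groups 9 to 13 in 0% to 33.3%, the last value from the single probe set of group 12. Pooled over neighbouring groups, the share was higher at the 3′ end. In groups 1 to 4, 44 of 96 readings lay above background, 45.8%, compared with 25 of 90 in groups 5 to 8, 27.8%, and 9 of 102 in groups 9 to 13, 8.82%. Leaving out any 1 array kept the order of these 3 zones, with ranges of 43.8% to 48.8%, 25.3% to 30.7% and 7.06% to 10.6%, and the 90th percentile of the Bacillus probe sets gave 59.4%, 38.9% and 18.6%. The probe sets without any reading above background numbered 4 of 16, 6 of 15 and 12 of 17 in the 3 zones. Probe sets of a gene share their target, so these shares describe the array's members and carry no test, and the part that probe design plays in them was not tested.

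**Figure D1:**
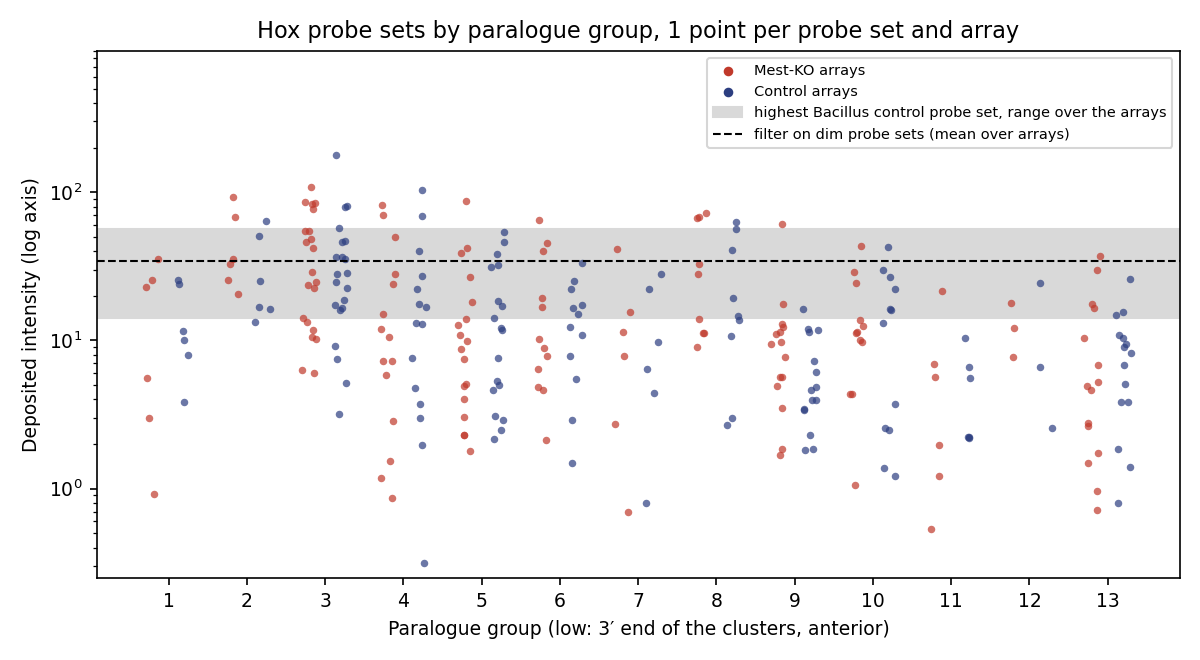
Deposited intensity of each Hox probe set on each array (log axis) by paralogue group, with Mest-KO arrays left and Control arrays right of each tick; the grey band spans the highest Bacillus probe set over the 6 arrays and the dashed line is the filter on mean intensity at 34.4. Points above the band occur mainly in groups 2 to 4 and 8, and 0 of the 17 probe sets of groups 9 to 13 passed the filter.

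A probe set was tested when its mean exceeded the 40th percentile of all probe sets, an intensity of 34.4. Of the 48, 7 passed (14.6%, against 60% of all probe sets), and they read 5 genes: Hoxa2, Hoxa3, Hoxb3, Hoxc4 and Hoxc8. Groups 1 to 4 held 6 of these probe sets, groups 5 to 8 held 1, and groups 9 to 13 held 0. The remaining 41 probe sets are given by their values only.

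Between Mest-KO and Control, no Hox gene passed the test. limma with Benjamini-Hochberg adjustment over all 27022 probe sets called 0 of the 7 at an adjusted p under 0.05, where it called 0% of all probe sets, and 0 of 7 had an unadjusted p under 0.05, against 3.98% of all. The fit over 12462 genes likewise called 0 of 5 Hox genes, against 0% of all genes, and 0 of 5 had an unadjusted p under 0.05, against 5.14% of all. The smallest adjusted p was 0.969 for a probe set and 0.909 for a gene. Of the 7 probe sets, 4 had higher and 3 lower values in Mest-KO, with a median difference of 0.14 against -0.0072 over all probe sets tested. In bulk RNA, fewer cells that use a gene and less RNA per cell cannot be told apart.

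Hoxa2 is the Hox gene with the most anterior limit in the hindbrain, and it patterns the second pharyngeal arch. Its probe set 1419602_at read 32.6, 92.2 and 68.5 on the Mest-KO arrays 1, 2 and 3, against 63.9, 50.4 and 13.3 on the Control arrays 1, 2 and 3 (64.4 ± 30.0 and 42.6 ± 26.2, mean ± SD, n = 3 each). Mest-KO 2 was highest and Control 3 lowest, and the groups overlapped. The difference was 0.56 (SE 0.647, 95% interval -1.02 to 2.13, limma adjusted p = 0.969), and it was -0.13 without Control 3.

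Hoxa3, needed for development of the thymus and parathyroid, passed with 2 of its 4 probe sets. Probe set 1427433_s_at read 24.8, 47.9 and 54.7 on the Mest-KO arrays, against 79.8, 22.5 and 17.3 on the Control arrays (42.5 ± 15.7 and 39.9 ± 34.6, mean ± SD, n = 3 each). Control 1 was highest and the other Control arrays were lowest, so the Control values spanned the Mest-KO values (difference 0.14, SE 0.549, interval -1.19 to 1.48, limma adjusted p = 0.987). Probe set 1452421_at read 10.2, 54.4 and 109 on the Mest-KO arrays, against 80.9, 28.1 and 36.5 on the Control arrays. Here the Mest-KO arrays spanned the Control arrays, with a 10.7-fold range of deposited intensity among the Mest-KO pools (difference -0.24, SE 0.785, interval -2.15 to 1.67, limma adjusted p = 0.985). The sign of either difference turned when single arrays were left out, over -0.26 to 0.77 for 1427433_s_at and -0.84 to 0.60 for 1452421_at. The remaining Hoxa3 probe sets did not pass: 1429398_at lay above background on no array and 1431392_at on 1, Control 2.

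Hoxb3 acts with Hoxa3 and Hoxd3 in the hindbrain and arches, and both of its probe sets passed. Probe set 1456229_at read 86.1, 84.8 and 83.6 on the Mest-KO arrays, against 177, 47.0 and 35.4 on the Control arrays (84.8 ± 1.29 and 86.5 ± 78.6, mean ± SD, n = 3 each). The Mest-KO arrays lay within a 1.03-fold range and the Control arrays within a 5-fold range around them, with Control 1 highest (difference 0.15, SE 0.561, interval -1.22 to 1.52, limma adjusted p = 0.987). The difference of these ranges was not tested. Probe set 1427605_at read 46.4, 42.3 and 77.4 on the Mest-KO arrays, against 57.1, 16.7 and 36.6 on the Control arrays. Control 1 lay among the Mest-KO values and the other Control arrays lay below them (difference 0.56, SE 0.402, interval -0.42 to 1.54, limma adjusted p = 0.969). The difference stayed above 0 with any 1 array left out, from 0.12 to 0.93. Without Control 3, 1456229_at differed by -0.31, and without Control 2 by -0.032.

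Hoxc4, the 3′-most gene of cluster C, had the smallest p of the 7. Its probe set 1422870_at read 15.1, 24.0 and 81.6 on the Mest-KO arrays, against 103, 69.1 and 40.3 on the Control arrays (40.2 ± 36.1 and 70.9 ± 31.5, mean ± SD, n = 3 each). Mest-KO 1 and Mest-KO 2 were lowest, but the groups overlapped. In deposited intensity Mest-KO 3 lay above Control 2 and Control 3. After normalization Mest-KO 3 lay above Control 3 alone (log2 level 5.95 against 5.40) and below Control 2 (6.31). The difference was -1.19 (SE 0.537, interval -2.50 to 0.12, unadjusted p = 0.0683, limma adjusted p = 0.969). It stayed below 0 with any 1 array left out, from -1.75 to -0.77.

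Hoxc8, which patterns the thoracic level of the trunk, was the only tested gene outside groups 1 to 4. Its probe set 1452412_at read 32.8, 72.1 and 66.6 on the Mest-KO arrays, against 56.1, 40.5 and 62.5 on the Control arrays (57.1 ± 21.3 and 53.1 ± 11.3, mean ± SD, n = 3 each). Mest-KO 1 was lowest and Mest-KO 2 highest, with all Control arrays between them. The difference was -0.12 (SE 0.263, interval -0.76 to 0.52, limma adjusted p = 0.979). It turned to 0.048 on the deposited scaling and to 0.095 without Mest-KO 1.

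**Figure D2:**
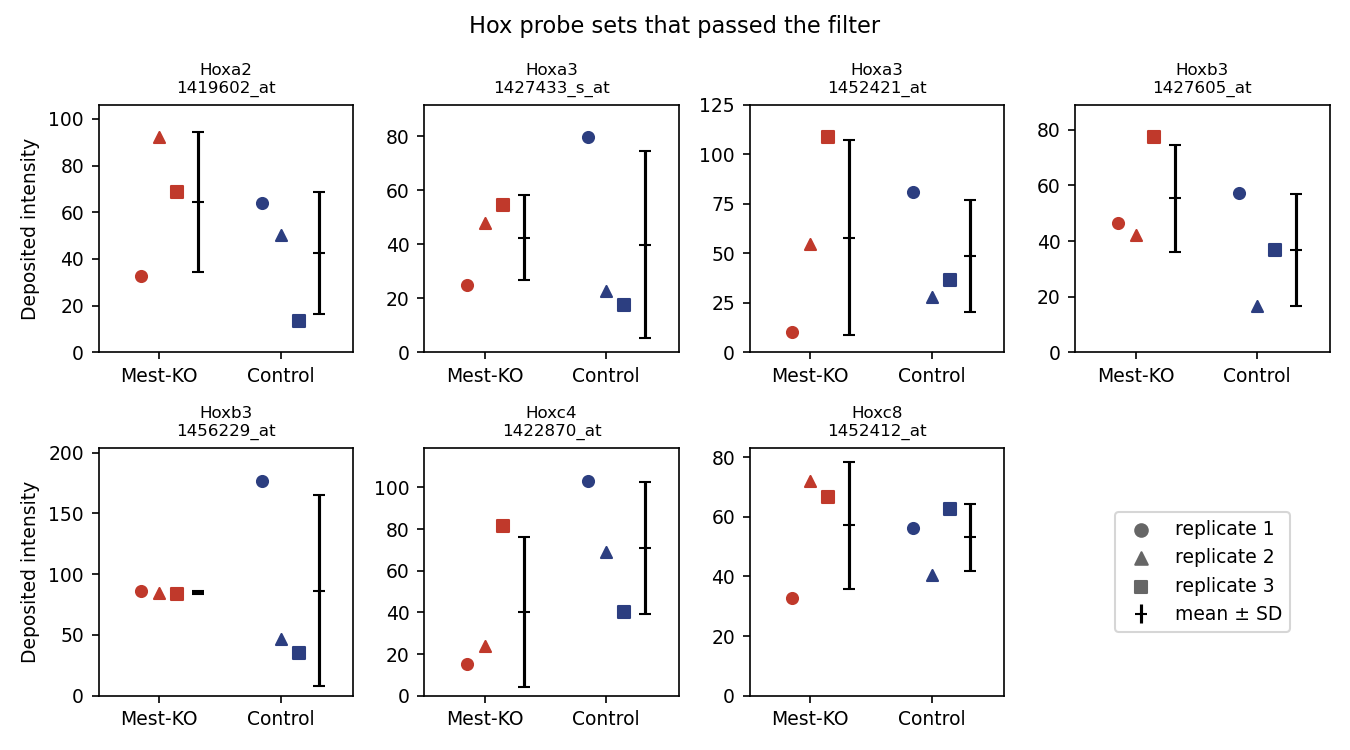
Deposited intensity of the 7 Hox probe sets that passed the filter, with 1 point per array (marker shape: replicate number) and the mean ± SD beside each group, Mest-KO left and Control right; each panel has its own axis from 0. The groups overlapped in every panel.

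The intervals around these differences were wide. The residual SD of the 7 probe sets had a median of 0.821 log2 units (0.378 to 1.18), against 0.381 for all probe sets between the 40th and 60th percentile of brightness and 0.192 for all tested probe sets. The lower end of the Hoxc4 interval was -2.50 and the upper end of the Hoxa2 interval was 2.13, so differences as large as these lay within the error of 3 arrays per group.

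Among the Hox genes of groups 1 to 4 that did not pass, Hoxd3 came closest to steady detection. Its probe set 1437664_at read 29.0, 22.7 and 23.8 on the Mest-KO arrays, against 46.2, 28.3 and 24.7 on the Control arrays, and only Mest-KO 3, with its high background, failed to exceed background. Hoxb2, a direct target of Krox20 (Egr2) in the hindbrain, read 20.4, 25.7 and 35.4 on the Mest-KO arrays, against 16.2, 16.7 and 25.3 on the Control arrays, with 1 array per group above background. Hoxb1, the gene of rhombomere 4 at the level of the ear, read 22.8, 2.99 and 35.2 on the Mest-KO arrays, against 3.83, 23.9 and 8.02 on the Control arrays. Hoxb1 thus exceeded background on Control 2 alone. Hoxd1 exceeded it on Control 1 alone, with 0.92, 5.57 and 25.5 on the Mest-KO arrays, against 25.6, 11.5 and 10.1 on the Control arrays. Hoxb4 1460379_at ranged widely, with 5.81, 1.17 and 70.0 on the Mest-KO arrays, against 27.1, 22.1 and 3.70 on the Control arrays. Hoxa4 lay above background on no array.

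In groups 5 to 7, genes of the cervical and upper thoracic levels, the brightest members were seen in some pools of each group. Hoxa5 1443803_x_at read 9.88, 38.9 and 87.1 on the Mest-KO arrays, against 38.3, 31.1 and 7.59 on the Control arrays. Hoxc6 1427454_at read 45.2, 16.9 and 64.9 on the Mest-KO arrays, against 25.1, 15 and 17.4 on the Control arrays, and exceeded background on 5 arrays. Hoxa7 read 15.6, 41.2 and 11.4 on the Mest-KO arrays, against 22.1, 9.70 and 28.2 on the Control arrays. The groups overlapped in all 3, and no array was highest in all of them. Hoxb5 and Hoxb6 exceeded background on Control 1 alone, at 53.5 and 33.2. On Mest-KO 3, Hoxb5 read 12.7 and Hoxb6 read 39.8, both under that array's higher background of 56.6. Hoxb7 and all 3 Hoxc5 probe sets exceeded background on no array. Hoxd8, a trunk gene of cluster D, read 11.2, 28 and 68.2 at its brighter probe set on the Mest-KO arrays, against 14.6, 19.3 and 13.7 on the Control arrays.

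Groups 9 to 13, the genes of the posterior trunk, limbs and tail, lay at background almost throughout. Hoxb9, the brightest member of group 9 by mean log2 level, read 7.69, 5.64 and 11.4 on the Mest-KO arrays, against 11.3, 11.9 and 7.29 on the Control arrays. Hoxa9 1455626_at read 13, 5.69 and 60.7 on the Mest-KO arrays, against 4.84, 3.94 and 1.84 on the Control arrays, and exceeded background on Mest-KO 3 alone. Hoxc10 read 11.4, 13.6 and 43.0 on the Mest-KO arrays, none above background, against 30.0, 26.9 and 22.3 on the Control arrays, all above. The reading and the background of Mest-KO 3 were both higher than every Control reading of Hoxc10, so no fold is given for it. Hoxa10 1431475_a_at exceeded background on Control 1 alone, at 42.4.

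The brightest members of the last groups stood near the background level of their own arrays. Hoxa11, a gene of the forearm and reproductive tract, read 21.6, 0.53 and 6.91 on the Mest-KO arrays, against 6.63, 2.19 and 10.4 on the Control arrays. Hoxd12, a limb gene, read 12.2, 17.9 and 7.75 on the Mest-KO arrays, against 2.55, 6.64 and 24.4 on the Control arrays. Hoxc13, a gene of the tail and hair follicle, read 16.5, 17.6 and 30.0 on the Mest-KO arrays, against 26.1, 14.8 and 9.51 on the Control arrays. Hoxa11 exceeded background on no array, and Hoxd12 and Hoxc13 on 1 array of each group. Hoxa13, Hoxb9, Hoxb13, Hoxc9, Hoxd9, Hoxd10, Hoxd11 and Hoxd13 also exceeded it on no array.

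Over all 48 probe sets, dim ones included, 26 had higher and 22 lower values in Mest-KO, with a median difference of 0.060 against -0.0069 over all probe sets. In the fit without a filter, 3 of 48 had an unadjusted p under 0.05, against 3.7% of all probe sets, and the smallest adjusted p by limma was 1.00. They were Hoxa9 1455626_at, Hoxc5 1456301_at and Hoxd13 1440626_at, of which the last 2 never exceeded background. The same 3 were those whose normalized values did not overlap between the groups, 1 higher and 2 lower in Mest-KO, against 8.85% of all probe sets. Among the Mest-KO arrays, Mest-KO 3 was highest for 24 of 48 probe sets (50% against 34.8% of all probe sets), and among the Control arrays Control 1 was highest for 22 (45.8% against 33.9%).

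The Hox signal varied between pools of each genotype, and so did markers of other tissues of the dissection. The 7 tested probe sets had a mean normalized log2 level of 5.03, 5.84 and 5.81 on the Mest-KO arrays, against 6.35, 5.34 and 5.04 on the Control arrays. The means of the mesenchyme markers were 6.86, 8.41 and 7.65 on the Mest-KO arrays, against 7.85, 7.57 and 6.68 on the Control arrays. Both sets were thus lowest in Mest-KO 1 and Control 3 within their groups, while Control 1 was highest for the Hox genes and Mest-KO 2 for the mesenchyme markers. Means of the hindbrain and neural tube markers were 5.38, 5.74 and 5.67 on the Mest-KO arrays, against 5.83, 5.58 and 5.11 on the Control arrays. This list was also lowest in Mest-KO 1 and Control 3 of each group. The other lists differed from that order: endothelium and macrophage markers were lowest in Mest-KO 3 and Control 3, neural crest and red blood cell markers in Mest-KO 3 and Control 2, and ganglion neuron markers in Mest-KO 1 and Control 2. The otic epithelium markers spread less, from 11.39 to 11.49 on the Mest-KO arrays and from 11.51 to 11.58 on the Control arrays, and here the groups did not overlap. The smallest p of that list was that of Gata3, a transcription factor gene of the developing ear (difference -1.02, SE 0.107, limma adjusted p = 0.0969). Of the 12 markers, 4 were higher and 8 lower in Mest-KO, with a median difference of -0.033. Gata3 differed most, followed by Otx2 (-0.27), so the gap between the groups in the list mean rests largely on Gata3.

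**Figure D3:**
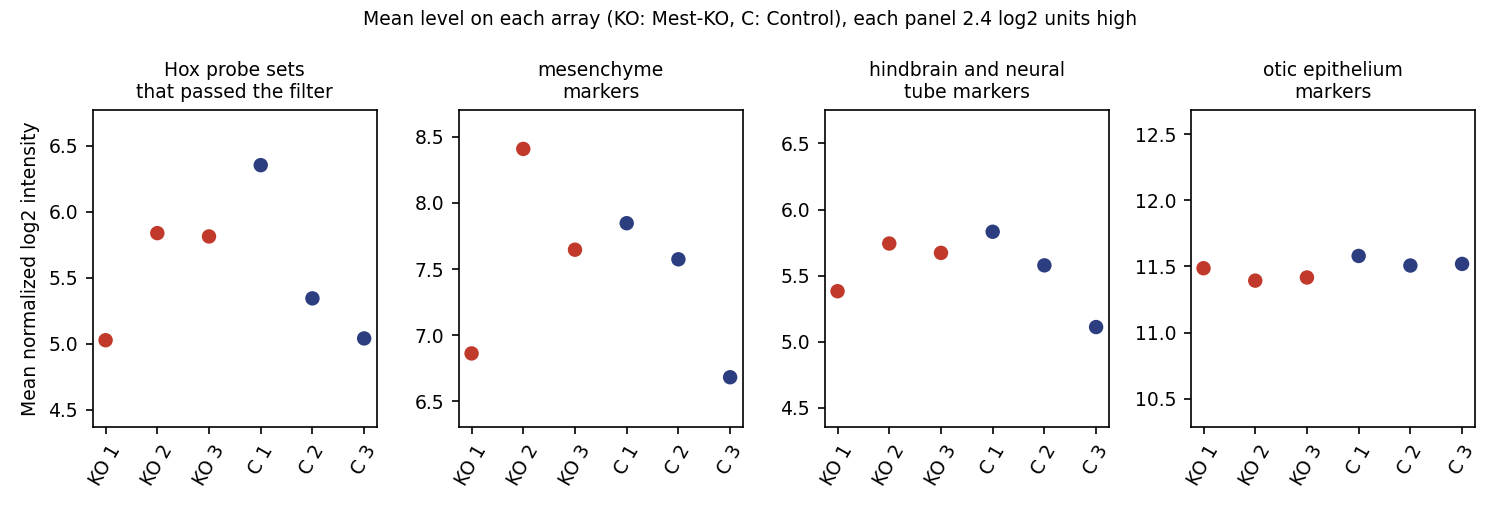
Mean normalized log2 intensity on each array for the 7 tested Hox probe sets and for markers of mesenchyme, hindbrain and neural tube, and otic epithelium, with Mest-KO arrays left and Control arrays right; all panels span the same log2 range. Mest-KO 1 and Control 3 are the lowest of their groups in the first 3 panels.

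Mesenchyme RNA was present in every pool. Of its 14 markers, 12 lay above background on all 6 arrays, among them Prrx1, Twist1, Col1a1 and Pdgfra, and Tcf21 lay above it on none. Their summed intensity ranged from 2526 to 7751 on the Mest-KO arrays and from 1965 to 4738 on the Control arrays. Of the 13 that passed the filter, 11 had higher and 2 lower values in Mest-KO (median difference 0.38), and 0 were called. Of the 10 hindbrain and neural tube markers, 3 lay above background on all 6 arrays (Epha4, Lhx1 and Nkx6-1) and 2 on none (Olig2 and Dbx1), with sums from 4021 to 4814 on the Mest-KO arrays and from 3404 to 3939 on the Control arrays. Epha4 made up most of that sum, at 3477 to 4391 on the Mest-KO arrays and 3082 to 3402 on the Control arrays. Markers above background on all 6 arrays numbered 6 of 7 for neural crest and glia, 10 of 10 for ganglion neurons, 5 of 6 for red blood cells, 2 of 8 for endothelium and 2 of 8 for macrophages. No list of the 8 had a called gene, and the part of these cells in the Hox values was not tested.

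The TALE homeodomain proteins, which bind DNA together with Hox proteins, were all well detected. All 9 genes measured (Meis1, Meis2, Meis3, Pbx2, Pbx3, Pbx4, Pknox1, Pknox2 and Tgif1) lay above background on all 6 arrays. Meis1 read 224, 238 and 213 on the Mest-KO arrays, against 400, 179 and 226 on the Control arrays, with Control 1 highest (difference -0.24, SE 0.261, limma adjusted p = 0.917). Meis2 read 3231, 3145 and 2796 on the Mest-KO arrays, against 2990, 2989 and 3397 on the Control arrays, and the groups overlapped (difference -0.023, SE 0.095, limma adjusted p = 0.979). Tgif1 had the smallest p of the list, with 2535, 1996 and 2015 on the Mest-KO arrays, against 2428, 2551 and 2558 on the Control arrays. Its difference was -0.20 (SE 0.113, limma adjusted p = 0.909). Of the 9, 5 had higher and 4 lower values in Mest-KO with a median of 0.034, and 0 were called.

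**Figure D4:**
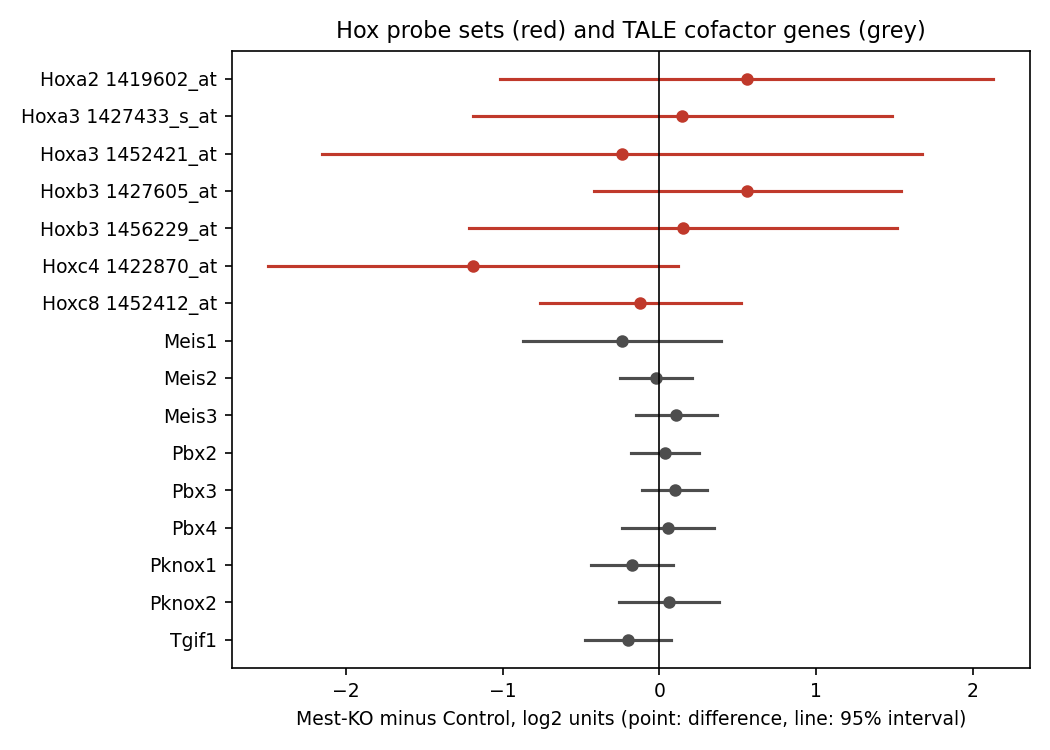
Difference in log2 units (Mest-KO minus Control, points) with 95% intervals (lines) for the 7 tested Hox probe sets in red and the 9 TALE cofactor genes in grey. All intervals include 0, and those of the Hox probe sets are mostly wider.

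Genes that switch Hox clusters on included both dim and bright members. Egr2 (Krox20), which activates Hoxa2 and Hoxb2 in the hindbrain, read 22.9, 61.1 and 119 on the Mest-KO arrays, against 44.6, 31.5 and 37.5 on the Control arrays (difference 0.47, SE 0.458, limma adjusted p = 0.909). Mest-KO 3 was highest and Mest-KO 1 lowest, so the Mest-KO values spanned the Control values. Cdx4, of the caudal family that drives trunk Hox genes, lay above background on no array, and Cdx1 and Cdx2 on 1 array each. Rxrg, a retinoid X receptor gene, had the smallest p of the list, with 144, 155 and 199 on the Mest-KO arrays, against 315, 245 and 212 on the Control arrays. Its groups did not overlap (difference -0.67, SE 0.165), but it did not pass the adjusted test (limma adjusted p = 0.777). Of the 10 genes of this list that passed the filter, 5 had higher and 5 lower values in Mest-KO. Aldh1a2, which makes retinoic acid, differed by -0.082 (SE 0.104) and the retinoic acid receptor gene Rarb by -0.090 (SE 0.178).

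Chromatin regulators that keep Hox clusters silent or active were measured with narrow error. All 17 Polycomb genes and all 10 Trithorax and MLL genes lay above background on all 6 arrays, with median SE of 0.0994 and 0.117, against 0.549 for the 7 Hox probe sets. Polycomb differences lay between -0.23 and 0.16, with 11 higher and 6 lower. Ezh2, the histone H3 lysine methyltransferase of Polycomb, read 6288, 5284 and 5237 on the Mest-KO arrays, against 5645, 5689 and 5415 on the Control arrays (difference 0.040, SE 0.102). Cbx7 had the smallest p of the Polycomb list, with 60.8, 49.7 and 71.7 on the Mest-KO arrays, against 79.8, 49.6 and 62.3 on the Control arrays (difference -0.23, SE 0.159, limma adjusted p = 0.909). The Trithorax and MLL differences lay between -0.15 and 0.16, with 4 higher and 6 lower. Psip1 had the smallest p there, with 7357, 8304 and 7168 on the Mest-KO arrays, against 7036, 7159 and 6894 on the Control arrays (difference 0.16, SE 0.0861, limma adjusted p = 0.909). No gene of either list was called.

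Most genes beside the Hox clusters were well detected, as were most genes of the array, while the clusters were dim. Of 16 neighbours measured, 12 lay above background on all 6 arrays, including Hibadh, Snx10, Cbx1, Cbx5 and Mtx2. The same held for 65.3% of all genes and for 2 of 33 Hox genes, each gene read at its brightest probe set. Among the neighbours, 0 of the 13 that passed the filter were called (9 higher, 4 lower). Calcoco1 had the smallest p, with 1501, 1643 and 1558 on the Mest-KO arrays, against 1213, 1282 and 1340 on the Control arrays (difference 0.30, SE 0.0869, limma adjusted p = 0.878). Its groups did not overlap. The antisense transcripts Hoxa11os, Hoxb5os and Hoxd3os1 did not pass the filter, and at the brightest probe set of each gene the sole reading above background was Hoxa11os on Control 1, at 30.4. The 3 probe sets that the annotation assigns to a pair of Hox genes, for Hoxd4 with Hoxd3 and for Hoxb8 with Hoxb7, exceeded background on no array.

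Of 15 other homeobox genes of axial position, 4 lay above background on all 6 arrays and passed the filter. They were Gbx2, Otx1 and Otx2, which are known from the otic epithelium, and Evx1, which lies beside the 5′ end of cluster A. Otx2 had the smallest p, with 1747, 1866 and 2204 on the Mest-KO arrays, against 2324, 2057 and 2653 on the Control arrays (difference -0.27, SE 0.141, limma adjusted p = 0.909). Gbx1, En1, Mnx1 and Cdx4 lay above background on no array. En2, a midbrain and hindbrain gene, read 206 on Control 1 and at most 18.0 on any other array.

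Among 15 measured genes reported downstream of Hox factors in hindbrain, arches or kidney, 13 passed the filter (8 higher, 5 lower) and 0 were called. Gdnf, a neurotrophic factor gene, had the smallest p, with 29.9, 31.8 and 55.5 on the Mest-KO arrays, against 101, 65.3 and 68.2 on the Control arrays. Its groups did not overlap, and Mest-KO 3 lay below background, but it did not pass the adjusted test (difference -1.18, SE 0.155, limma adjusted p = 0.256).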

How the data were processed

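RNA of otic vesicles was hybridised to Affymetrix arrays, 3 per group. Linear probe set intensities were deposited, and the values show that the authors scaled each array to a trimmed mean of 500 (2% trimmed per end). Affymetrix Expression Console 1.1 is named in the submitters' processing notes. How probes were summarised and background was removed, not given in the sources used here, could shift low intensities most. The number of arrays limits the precision.

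Probe sets were named from the platform annotation where it gave 1 symbol (34945 of 45037, with 932 of several symbols and 9160 unnamed here), and 34741 symbols were updated through RefSeq. The 64 control probe sets were left out. After a floor at 1, values were put on the log2 scale and quantile normalized. Probe sets above the 40th percentile of mean level went into a limma fit (version 3.58.1, R 4.3.3; lmFit, eBayes, no covariate, Benjamini-Hochberg adjusted p under 0.05). A gene was read from its brightest probe set. The steps were tested on simulated data. Figures used matplotlib 3.10.9 in Python 3.11.15.

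Same-numbered arrays did not deviate together (correlations -0.041, -0.0065 and 0.033). Any pair of arrays had at most 1 equal value. Values on every array are given for tested Hox probe sets, the brightest member of each later paralogue group, and, from each companion list, the gene of smallest p plus Meis1, Meis2 and Egr2. Other genes and values were chosen after their values were seen. The members and lists (8 of cell type markers, 8 of companion genes) were chosen with earlier results of these data known. Alternatives were the filter, centring, deposited scaling, a floor at 16, a variance trend, array weights, the replicate block, a threshold of 0.10, leaving out each array and, for genes, the mean of the probe sets or the most variable one.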

Additional observations from a re-analysis of the deposited data

How the results depend on the processing

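No Hox probe set was called under the 16 alternatives run for probe sets and no Hox gene under the 18 run for genes, which add averaging over probe sets and taking the most variable one. The number of Hox probe sets that passed the filter was 6 to 7 with an array left out and 0 at the 60th percentile, where none was left to test. Over all probe sets, 0 were called, against 1 without a filter, 9 above the 60th percentile, 15 with median centring, 14 with a variance trend, 17 with trend and robust fitting, and 1 at a threshold of 0.10, and 0 with any array left out. The Hox median of 0.060 ranged from -0.10 to 0.27 with an array left out. It was 0.17 on the deposited scaling, 0.018 with median centring, 0.064 with array weights and 0 with a floor at 16. The replicate block cannot change it, since both groups hold the same replicate numbers. The number of Hox probe sets above background on all arrays was 2 to 4 with an array left out, and 7 with the 90th percentile of the Bacillus probe sets, chosen after seeing the data as was leaving out an array here. Signs turned with 1 array left out for Hoxa2 (-0.13 to 0.94), Hoxa3 1427433_s_at (-0.26 to 0.77), Hoxa3 1452421_at (-0.84 to 0.60), Hoxb3 1456229_at (-0.31 to 0.81), Hoxc8 (-0.38 to 0.095) and Tbx1 (-0.14 to 0.059), and Hoxc8 was 0.048 on the deposited scaling. The differences of Hoxb3 1427605_at (0.12 to 0.93) and Hoxc4 (-1.75 to -0.77) kept their sign. The cause of these shifts was not tested. Signals near the Bacillus level limit what can be compared: a Hox transcript of few cells in a pool may lie below it.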
